A study of Mus musculus with 50 samples.

Results

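The Cyp26 family consists in the mouse of 3 cytochrome P450 enzymes, encoded by Cyp26a1, Cyp26b1 and Cyp26c1, which hydroxylate retinoic acid. Its members were taken by symbol from the raw count table, where they are 3 of 56600 rows. The 50 libraries are poly(A) RNA-seq of whole lymph nodes from C57BL/6J offspring (genotype given as C57B6) at postnatal day 56. They fall into 10 groups of 5, which cross 2 diets with the duodenal, jejunal, ileal and colonic nodes, which drain the gut, and the inguinal node, which drains skin. Dams of 7 to 8 weeks received the vitamin A deficient diet or an ingredient-matched diet with vitamin A restored to 20 IU/g (the sufficient diet) from 3 weeks before mating, and their later litters (the second and the third) were collected. All deficient libraries are from females, and the sufficient groups hold 2 female and 3 male libraries each. The labels do not tie nodes to animals, so that 5 nodes of the same number may or may not come from 1 mouse, and dam and litter cannot be told apart from diet. P-values therefore measure the spread between these libraries.

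CYP26 enzymes sit in the membrane of the endoplasmic reticulum and turn all-trans retinoic acid, the active form of vitamin A, into polar products that are cleared from the cell. They thereby oppose the retinaldehyde dehydrogenases, which make retinoic acid, and set how far it spreads between neighbouring cells. Cyp26a1 is a classic target gene of retinoic acid, switched on through receptor sites in its promoter. Cyp26b1 guards skin, limb and testis of the embryo from retinoic acid and is also expressed in T cells and stroma, and Cyp26c1 is mainly known from the embryonic head. In gut-draining nodes, retinoic acid made by dendritic cells and stroma gives lymphocytes their gut-homing receptors.

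In the GENCODE M21 annotation (GRCm38), Cyp26b1 (ENSMUSG00000063415) lies on the minus strand at chr6:84571414-84593908, with a longest coding transcript of 4495 bases in 6 exons. Cyp26c1 (ENSMUSG00000062432, chr19:37685581-37693398) and Cyp26a1 (ENSMUSG00000024987, chr19:37697798-37701536) are neighbours on the plus strand, 4399 bases apart, with longest coding transcripts of 1747 and 1791 bases. No other annotated gene overlaps any of them. The promoter windows below, from RefSeq (GRCm38.p6), are shown because these enzymes are counted among the retinoic acid targets and Cyp26b1 mRNA differed with the vitamin A of the diet. The first is the stretch of the Cyp26a1 window (chr19:37697770-37697798, plus strand) that holds a direct repeat, with both half-sites in capitals. The second is the part of the Cyp26b1 window before the GENCODE start (chr6:84593909-84594060, minus strand), with a TATA box motif in capitals. The start that the RefSeq window is built on, at position 84593810, lies 98 bases further into the gene. Each reads 5′ to 3′.
Cyp26a1: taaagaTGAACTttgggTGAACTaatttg
Cyp26b1: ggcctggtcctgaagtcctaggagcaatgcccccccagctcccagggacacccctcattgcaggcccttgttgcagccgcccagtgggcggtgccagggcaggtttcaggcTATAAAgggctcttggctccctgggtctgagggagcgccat

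The motif searched was a direct repeat of AGGTCA or AGTTCA on either strand with 5 bases between the half-sites, the spacing named DR5 that retinoic acid receptors are known to bind. It occurred in 13 of 32851 windows of the same length (0.0396%), and the Cyp26a1 window was among them. The Cyp26b1 and Cyp26c1 windows held neither this repeat nor a single copy of either half-site as spelled here. None of the 44 windows of other retinoid genes matched here held the repeat in this spelling. The letters TATAAA, found in 13.6% of windows on either strand, occurred once each in the Cyp26a1 and Cyp26b1 windows. These are matches of letters in a short window and not measured binding. Other spellings of the half-site were not searched, so a window without a match may still hold a receptor site.

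Library totals ranged from 5335370 to 8904720 estimated counts, with a median of 7640370. Each of the 12 T cell and 10 B and plasma cell markers was detected in every group. In all, 6 libraries held over 1% of counts from pancreatic genes, up to 21.9%, and 10 libraries, all of the deficient diet, held the transcript Gm19220 at 1.03% to 1.70% of counts against 5.37% to 9.83% in the other 40. Results that change without these libraries are named below. All levels are CPM, counts scaled to a common library total after trimmed-mean (TMM) normalization. Fold changes come from edgeR's quasi-likelihood test over the 18077 genes that passed a filter on low counts, with sex as a covariate, Benjamini-Hochberg adjustment over all of them and a threshold of 0.05.

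Cyp26b1 was the only member that passed the filter. It had a count in 49 of 50 libraries and 2437 counts in all, against 82.4 for Cyp26a1 and 36.8 for Cyp26c1. Divided by the length of the longest coding transcript, the mean level of Cyp26b1 in sufficient inguinal nodes was 4.47 ± 0.803 CPM per kb (SD, n = 5), that of Cyp26a1 0.142 ± 0.0704 and that of Cyp26c1 0.0729 ± 0.0759. In deficient duodenal nodes the per-kb levels of Cyp26b1 (0.107 ± 0.0819) and Cyp26a1 (0.167 ± 0.134) lay within each other's SD.

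On the sufficient diet, Cyp26b1 was highest in inguinal nodes, with 20.6, 16.1, 16.9, 24.7 and 22.2 CPM in the 5 libraries and a mean of 20.1 ± 3.61 (SD, n = 5). Jejunal nodes followed with 9.36, 11.3, 8.71, 10.7 and 24.2 CPM (12.9 ± 6.42). Of these, 4 libraries lay below every inguinal library, and the fifth lay within the inguinal range. Ileal nodes gave 4.48, 5.44, 5.10, 6.07 and 13 CPM (6.82 ± 3.51), again with the fifth library highest. Duodenal nodes gave 5.65, 5.74, 4.21, 3.87 and 6.28 CPM (5.15 ± 1.05). Colonic nodes were close to them, with 6.71, 6.08, 3.35, 3.44 and 5.56 CPM (5.03 ± 1.55). No duodenal, ileal or colonic library reached the lowest inguinal one.

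On the deficient diet, Cyp26b1 stayed between 9.20 and 13.8 CPM in inguinal nodes, where the libraries gave 13.1, 13.2, 13.8, 9.20 and 11 CPM (12 ± 1.92). In gut-draining nodes it was near the limit of detection. Duodenal nodes gave 0.33, 0.91, 0, 0.37 and 0.78 CPM (0.479 ± 0.368), and 3 counts, the upper limit of a count of 0 at 95% confidence (counting error only), would be 0.371 CPM in the library at 0. Jejunal nodes gave 0.83, 0.37, 0.84, 0.39 and 0.48 CPM (0.584 ± 0.233). Ileal nodes gave 0.65, 0.42, 0.24, 0.47 and 0.70 CPM (0.496 ± 0.183). Colonic nodes gave 2.65, 0.23, 0.73, 0.88 and 1.5 CPM (1.2 ± 0.931), the widest spread of the 4. Summed over 5 libraries, the deficient gut-draining groups held 18.6 (duodenal), 23.9 (jejunal), 21.1 (ileal) and 46.2 (colonic) counts of Cyp26b1, and the inguinal group 500.4. In whole nodes, fewer cells that express a gene and less RNA per cell cannot be told apart.

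**Figure D1:**
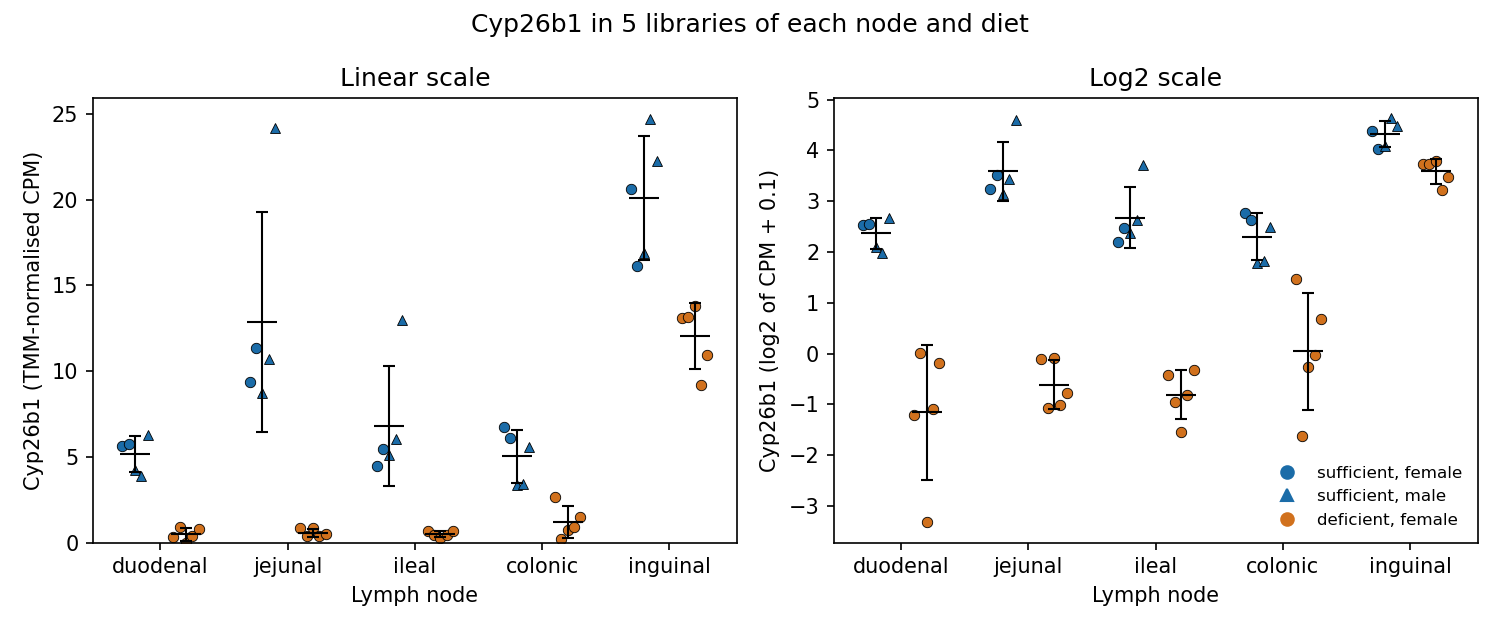
Cyp26b1 in each library by node and diet, in CPM on a linear axis (left) and as log2 of CPM + 0.1 (right). Points are libraries, horizontal bars group means and error bars SD (n = 5). Deficient gut-draining nodes lie between 0 and 2.65 CPM, below every library of the sufficient diet, and deficient inguinal nodes between 9.20 and 13.8 CPM.

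On both diets Cyp26b1 mRNA was less abundant in the gut-draining nodes than in the inguinal node. On the sufficient diet the mean over the 20 gut-draining libraries was 7.46 CPM, and the inguinal mean was 2.69 times as high (log2 fold change −1.54 ± 0.23 SE, gut-draining against inguinal, edgeR adjusted p = 1.56e-06). In that comparison 17.2% of the genes tested passed the threshold, 7.3% as lower, and Cyp26b1 ranked 80 by fold among the 1320 lower genes. On the deficient diet the gut-draining mean was 0.689 CPM, and the inguinal mean was 17.5 times as high (log2 fold change −4.19 ± 0.25 SE, edgeR adjusted p = 6.69e-17). There 5.78% of genes passed, 1.98% as lower, and Cyp26b1 ranked 11 among 358. The highest deficient gut-draining library stood at 2.65 CPM and the lowest deficient inguinal library at 9.20 CPM.

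Node by node on the sufficient diet, Cyp26b1 was lower than in inguinal nodes in colonic (log2 −2.0 ± 0.33, edgeR adjusted p = 6.43e-05), duodenal (−1.96 ± 0.33, adjusted p = 3.01e-05) and ileal nodes (−1.56 ± 0.32, adjusted p = 2.80e-04). In these comparisons 4.3%, 11% and 16.1% of genes passed. The jejunal difference of −0.64 ± 0.31 did not pass (adjusted p = 0.153, where 17.1% of genes passed), and it did pass without the sufficient libraries numbered 5 (−0.97, adjusted p = 0.0291), with the replicate number as a block (−0.73, adjusted p = 0.0426) and with limma-voom (−0.72, adjusted p = 0.0199). In females alone, with 2 libraries per group, the duodenal (−1.68, adjusted p = 0.0722) and colonic calls (−1.53, adjusted p = 0.164) were lost. Among gut-draining nodes, jejunal levels were higher than duodenal (duodenal against jejunal −1.32 ± 0.33, adjusted p = 0.0202, with 2.61% of genes passing) and colonic ones (jejunal against colonic 1.36 ± 0.33, adjusted p = 0.00975, with 3.27% passing). Both calls were lost without the sufficient libraries numbered 4 (adjusted p = 0.0976 and 0.0596) or 5 (0.0992 and 0.0729), the first also without those numbered 2 (0.0729) and the second without those numbered 3 (0.0522), and both in females alone (adjusted p = 0.760 and 0.749). Neighbours in the order inguinal, jejunal, ileal, duodenal, colonic did not differ at the threshold, with adjusted p = 0.224 for jejunal against ileal, 0.537 for duodenal against ileal and 0.983 for duodenal against colonic nodes.

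Each gut-draining node of the deficient diet was lower than the inguinal node by a larger fold than on the sufficient diet. Log2 fold changes of Cyp26b1 were −4.56 ± 0.42 in duodenal, −4.55 ± 0.42 in ileal, −4.30 ± 0.41 in jejunal and −3.35 ± 0.37 in colonic nodes, with edgeR adjusted p between 4.54e-11 and 3.14e-08. In these comparisons 4.69%, 6.28%, 6.46% and 1.99% of genes passed. The colonic mean, at 1.2 CPM, was 2.50 times the duodenal one. No pair of deficient gut-draining nodes passed, and the smallest adjusted p among them was 0.262, for duodenal against colonic nodes (−1.21 ± 0.50).

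Against the sufficient diet, Cyp26b1 fell in all 4 gut-draining nodes on the deficient diet. Its mean was 4.54% of the sufficient mean in jejunal, 7.27% in ileal, 9.30% in duodenal and 23.8% in colonic nodes, and in none of them did the ranges of the diets overlap. The share of all genes with ranges apart was not counted. The log2 fold change was −4.33 ± 0.43 in jejunal nodes (edgeR adjusted p = 1.09e-09), where 4.61% of genes passed and Cyp26b1 ranked 5 by fold among 330 lower genes. In ileal nodes it was −3.66 ± 0.45 (adjusted p = 1.90e-07), with 5.81% of genes passing and rank 3 of 548 by fold. In duodenal nodes it was −3.27 ± 0.46 (adjusted p = 1.96e-06), with 10.3% passing and rank 27 of 726. In colonic nodes it was −2.02 ± 0.40 (adjusted p = 0.00223), with 2.25% passing and rank 26 of 174. The deficient duodenal, jejunal and ileal means (0.479, 0.584 and 0.496 CPM) lay near the limit of detection. The order of their folds was that of the sufficient means (5.15, 12.9 and 6.82 CPM). Folds, ranks and interactions by node rest on these low values. The colonic call was lost when only the 10 colonic libraries were fitted (−2.43, adjusted p = 0.118) and without the libraries of low Gm19220 share (−1.43, adjusted p = 0.188), which include 3 of the 5 deficient colonic libraries.

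In inguinal nodes the mean on the deficient diet was 59.9% of the sufficient mean. The ranges did not overlap (9.20 to 13.8 against 16.1 to 24.7 CPM), but the share of all genes with ranges apart was not counted. The difference of −0.67 ± 0.33 on the log2 scale nevertheless did not pass the threshold (edgeR adjusted p = 0.423). Few genes passed in that comparison, 0.852% of those tested. Sufficient inguinal females alone spanned 16.1 to 20.6 CPM (n = 2) and males 16.9 to 24.7 CPM (n = 3). Over all sufficient nodes the male against female difference was 0.12 ± 0.21 (adjusted p = 0.715). By node, male means were higher in jejunal, ileal and inguinal nodes and lower in duodenal and colonic nodes. Colonic females spanned 6.08 to 6.71 CPM (n = 2) and males 3.35 to 5.56 CPM (n = 3). The fit has 1 sex term for all nodes, so a sex difference of a single node is not removed from its diet difference.

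The diet difference itself was larger in gut-draining than in inguinal nodes, by −2.65 ± 0.38 on the log2 scale (edgeR interaction, adjusted p = 3.11e-05). Only 0.935% of genes passed this interaction, 0.526% as more negative and 0.409% as more positive in gut-draining nodes, and Cyp26b1 ranked 8 among those 95. By node, the interaction with the inguinal node was −3.66 ± 0.51 for jejunal (adjusted p = 3.02e-05), −3.00 ± 0.53 for ileal (adjusted p = 6.48e-04) and −2.60 ± 0.54 for duodenal nodes (adjusted p = 0.0108). These are comparisons in which 0.337%, 1.48% and 0.47% of genes passed. The colonic interaction of −1.35 ± 0.49 did not pass (adjusted p = 0.487), in a comparison that 0.0221% of genes passed. The duodenal call was lost in females alone (−2.89, adjusted p = 0.119), without the deficient libraries numbered 3 (−2.22, adjusted p = 0.0592), without those of low Gm19220 share (−2.16, adjusted p = 0.168) and without those of high pancreatic share (−2.23, adjusted p = 0.276). The ileal call was lost in females alone (−2.66, adjusted p = 0.0769).

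**Figure D2:**
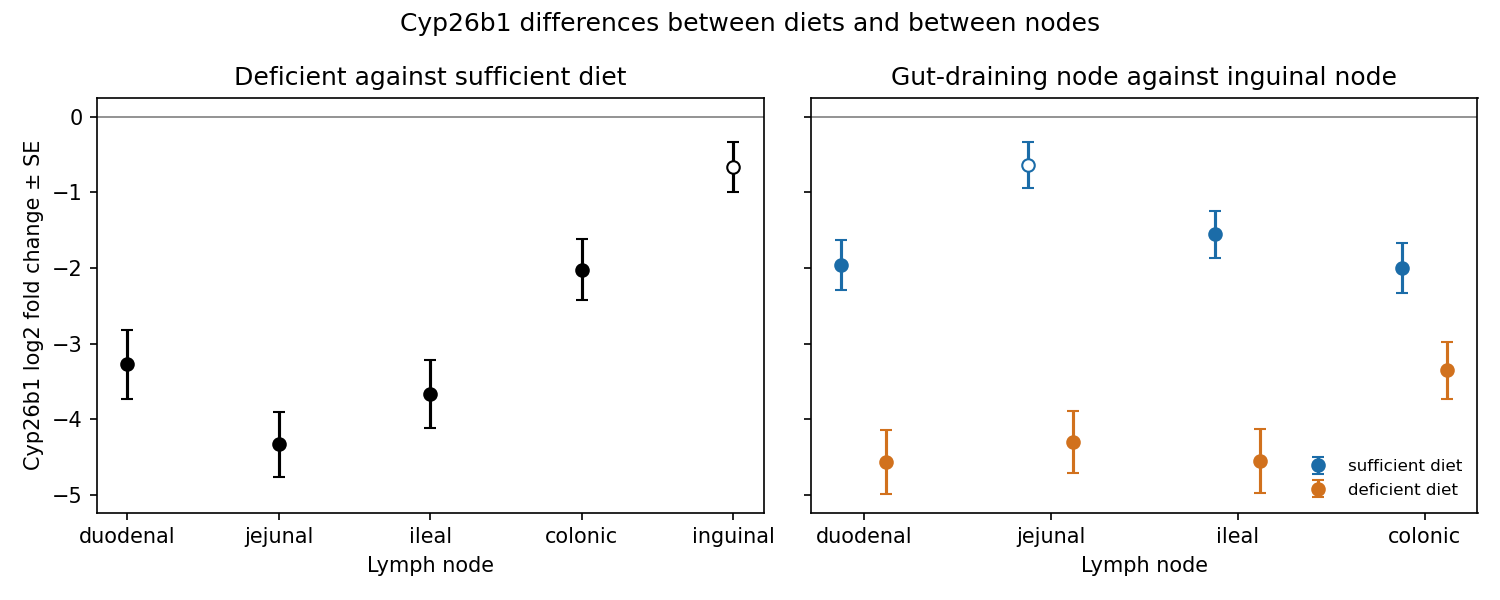
Log2 fold changes of Cyp26b1 with SE from edgeR, deficient against sufficient diet in each node (left) and each gut-draining node against the inguinal node on each diet (right). Filled points passed an adjusted p of 0.05 and open points did not. The diet difference runs from −4.33 in jejunal to −0.67 in inguinal nodes, and the jejunal node on the sufficient diet is the open point at −0.64.

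Cyp26a1 was detected at the level of single counts. It had a count in 39 of 50 libraries, with at most 5.30 counts and 0.691 CPM, and over 3 counts in 5 libraries. Its mean over sufficient gut-draining nodes was 0.277 CPM and over inguinal ones 0.254 CPM (exact two-sided permutation p = 0.816). The deficient means were 0.180 and 0.166 CPM (exact permutation p = 0.922). The largest diet difference was in ileal nodes, with 0.150 CPM on the deficient and 0.363 CPM on the sufficient diet (exact permutation p = 0.190). These values are near or under the level of 3 counts, which corresponds to 0.320 to 0.676 CPM in these libraries, so no fold change is given.

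Cyp26c1 had a count in 22 of 50 libraries, with at most 3.00 counts and 0.471 CPM. Its means were 0.0563 CPM in sufficient gut-draining and 0.127 CPM in sufficient inguinal nodes (exact permutation p = 0.269), and 0.114 and 0.126 CPM on the deficient diet (exact permutation p = 0.800). The smallest p was that of the colonic diet difference, with 0.201 CPM on the deficient and 0.0266 CPM on the sufficient diet (exact permutation p = 0.0873, adjusted p = 0.822 over the 14 tests of both genes). With 5 libraries against 5, the exact test can reach 0.00794, which is 0.111 after adjustment if only 1 of the 14 tests reaches it, so that a single diet difference could not have passed at any depth. No difference between nodes or diets was detected for either gene.

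**Figure D3:**
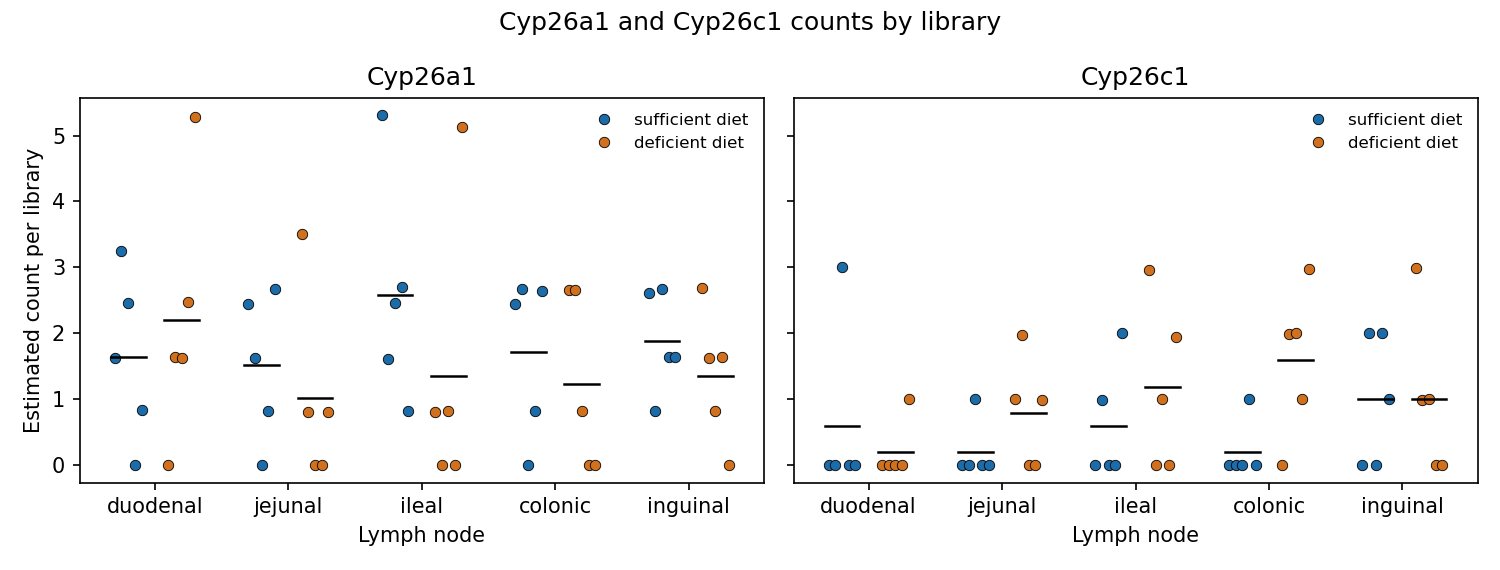
Estimated counts of Cyp26a1 (left) and Cyp26c1 (right) in each library by node and diet, with group means as bars (n = 5). No library exceeds 5.30 counts of Cyp26a1 or 3.00 of Cyp26c1, and the diets overlap in every node.

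Several genes of retinoid supply, storage and synthesis were higher in sufficient gut-draining nodes, where Cyp26b1 was lower. Of 21 tested genes of retinoid supply and synthesis (30 listed), 7 were higher in gut-draining nodes and 1 was lower, against 9.85% and 7.3% of all genes tested, with a median log2 fold change of 0.22 against −0.01 over all genes. Aldh1a2, a retinaldehyde dehydrogenase, led with 3.82 ± 0.29 (edgeR adjusted p = 1.41e-13), followed by Lrat, which esterifies retinol for storage, with 3.23 ± 0.26 (adjusted p = 5.53e-13). Dhrs3, which reduces retinaldehyde back to retinol, was higher by 1.33 ± 0.14 (adjusted p = 1.15e-09) and Stra6, the retinol transporter, by 1.84 ± 0.26 (adjusted p = 9.83e-07). For the deficient diet the counts were 2 higher and 1 lower (3.79% and 1.98% of all genes). Dhrs3 (0.66 ± 0.14, adjusted p = 8.59e-04) and Stra6 (1.31 ± 0.28, adjusted p = 0.00126), remained higher in gut-draining nodes, Lrat was lower (−0.90 ± 0.24, adjusted p = 0.0114, a call lost in 5 of 16 alternative analyses), and Aldh1a2 had a difference of 0.82 that did not pass.

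Aldh1a2 and Lrat fell with the deficient diet in all 4 gut-draining nodes, as Cyp26b1 did. Of the supply and synthesis list, 4 genes were lower in duodenal, jejunal and ileal nodes each and 3 in colonic nodes, and 1 was higher, in duodenal nodes. Of all genes tested, 6.33% were higher in duodenal, 2.79% in jejunal, 2.78% in ileal and 1.29% in colonic nodes, and the shares lower were 4.02%, 1.83%, 3.03% and 0.963%. Both fell most in duodenal nodes, Aldh1a2 by a log2 difference of −4.66 ± 0.35 (edgeR adjusted p = 1.34e-13) and Lrat by −4.29 ± 0.31 (adjusted p = 5.18e-14). Aldh1a2 fell from 49.4 ± 4.45 to 2.96 ± 1.17 CPM in jejunal nodes (log2 −3.89 ± 0.32, edgeR adjusted p = 1.01e-11), the node in which Cyp26b1 fell most by fold. The Cyp26b1 mean there was 0.584 CPM on the deficient diet, near the limit of detection. Lrat fell there from 18.5 ± 3.13 to 1.67 ± 0.764 CPM (−3.50 ± 0.29, adjusted p = 1.12e-11). In inguinal nodes no gene of this list passed as lower. Adh1, an alcohol dehydrogenase (1.10 ± 0.24, adjusted p = 0.0110), and Aldh1a1, another retinaldehyde dehydrogenase (1.69 ± 0.40, adjusted p = 0.0231), rose there, in a comparison in which 0.548% of all genes were higher. The interaction of diet and node passed for Lrat (−4.12 ± 0.35, adjusted p = 4.56e-11) and Aldh1a2 (−2.99 ± 0.45, adjusted p = 8.59e-05), both more negative in gut-draining nodes, as for Cyp26b1. Under the alternative analyses, the call was lost in 9 of 21 for inguinal Aldh1a1 and in 5 of 21 for inguinal Adh1. These comparisons share the libraries used for Cyp26b1. Comparisons of different nodes with the inguinal node also share the inguinal libraries.

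**Figure D4:**
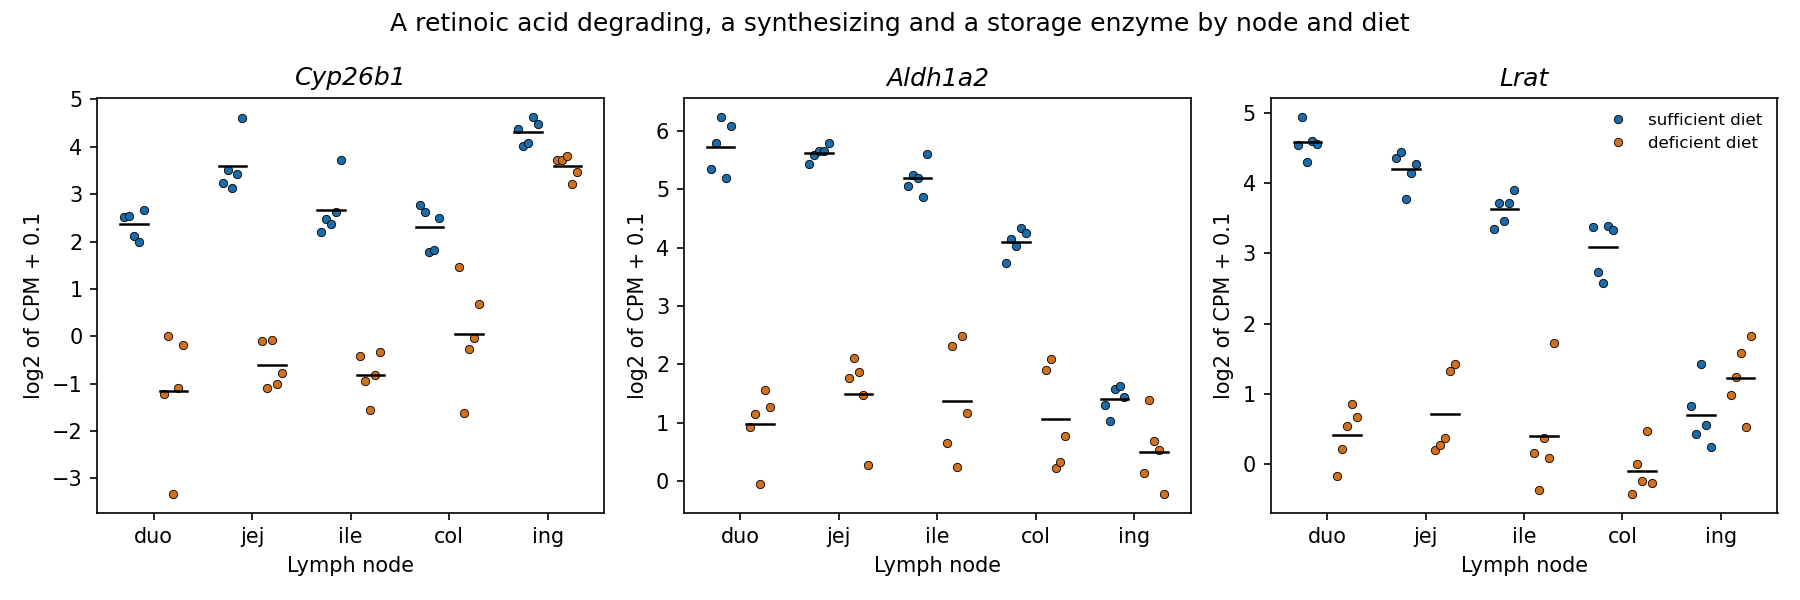
Cyp26b1, Aldh1a2 and Lrat in each library (log2 of CPM + 0.1) by node and diet, with group means of the log2 values as bars (n = 5). All 3 are lower on the deficient diet in every gut-draining node, but on the sufficient diet Cyp26b1 is highest and Aldh1a2 and Lrat are lowest in the inguinal node.

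Retinoic acid binding proteins and receptors differed in both directions between nodes of the sufficient diet. Of 14 tested genes (16 listed), 3 were higher and 2 lower in sufficient gut-draining nodes, against 9.85% and 7.3% of all genes, and none passed on the deficient diet. The higher count was 1 without the sufficient libraries numbered 1 and 0 without those numbered 2 or 5, and the lower count was 1 without those numbered 2 or 4. Rarb, a retinoic acid receptor that retinoic acid itself induces, was higher by 1.56 ± 0.49 (edgeR adjusted p = 0.0221) and Rara, the broadly expressed receptor, lower by a log2 difference of −0.28 ± 0.07 (adjusted p = 0.00276). With diet, Rara was higher in all 4 gut-draining nodes, by 0.68 ± 0.10 in duodenal (adjusted p = 2.27e-06), 0.48 ± 0.10 in jejunal (adjusted p = 9.89e-04), 0.49 ± 0.10 in ileal (adjusted p = 4.94e-04) and 0.35 ± 0.10 in colonic nodes (adjusted p = 0.0341). The colonic call was lost in 13 of 21 alternatives, and the Rarb call in 4 of 16. None of the list passed in inguinal nodes, and none passed the interaction.

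Of a list of genes known to respond to retinoic acid, most of those tested were higher in gut-draining nodes of the sufficient diet. The list was chosen with earlier results of these data known and does not stand for all such genes. Of 14 tested (19 listed, some of which, such as Lrat and Dhrs3, are also on the list of supply and synthesis), 11 were higher and none lower in sufficient gut-draining nodes, with a median of 1.06, and 6 were higher and 1 lower on the deficient diet, with a median of 0.44. Of all genes tested, 9.85% were higher and 7.3% lower on the sufficient diet, and 3.79% and 1.98% on the deficient diet. The median over all genes was −0.01 on each diet. With diet, 8 were lower in duodenal, 7 in jejunal, 8 in ileal and 4 in colonic nodes, and none higher, where 4.02%, 1.83%, 3.03% and 0.963% of all genes were lower. The colonic count was 2 without the sufficient libraries numbered 1 or 2 and 1 without those of low Gm19220 share, and the duodenal count was 4 without those of high pancreatic share. Hic1, a transcriptional repressor, fell by 1.41 on the log2 scale in duodenal nodes (edgeR adjusted p = 5.60e-08). In inguinal nodes 1 gene of the list passed, Ccr9, the gut-homing chemokine receptor (−0.68 ± 0.15, adjusted p = 0.0147), where 0.304% of all genes passed as lower. The interaction passed for 3 genes, Lrat, Rarres2 (−0.79 ± 0.17, adjusted p = 0.0138) and Hic1 (−0.68 ± 0.18, adjusted p = 0.0488). The Hic1 interaction was lost in 16 of 20 alternatives, that of Rarres2 in 4 of 20 and the inguinal Ccr9 call in 5 of 21. Cyp26b1, which belongs to none of these lists, was lower in gut-draining nodes where 11 of the 14 were higher.

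**Figure D5:**
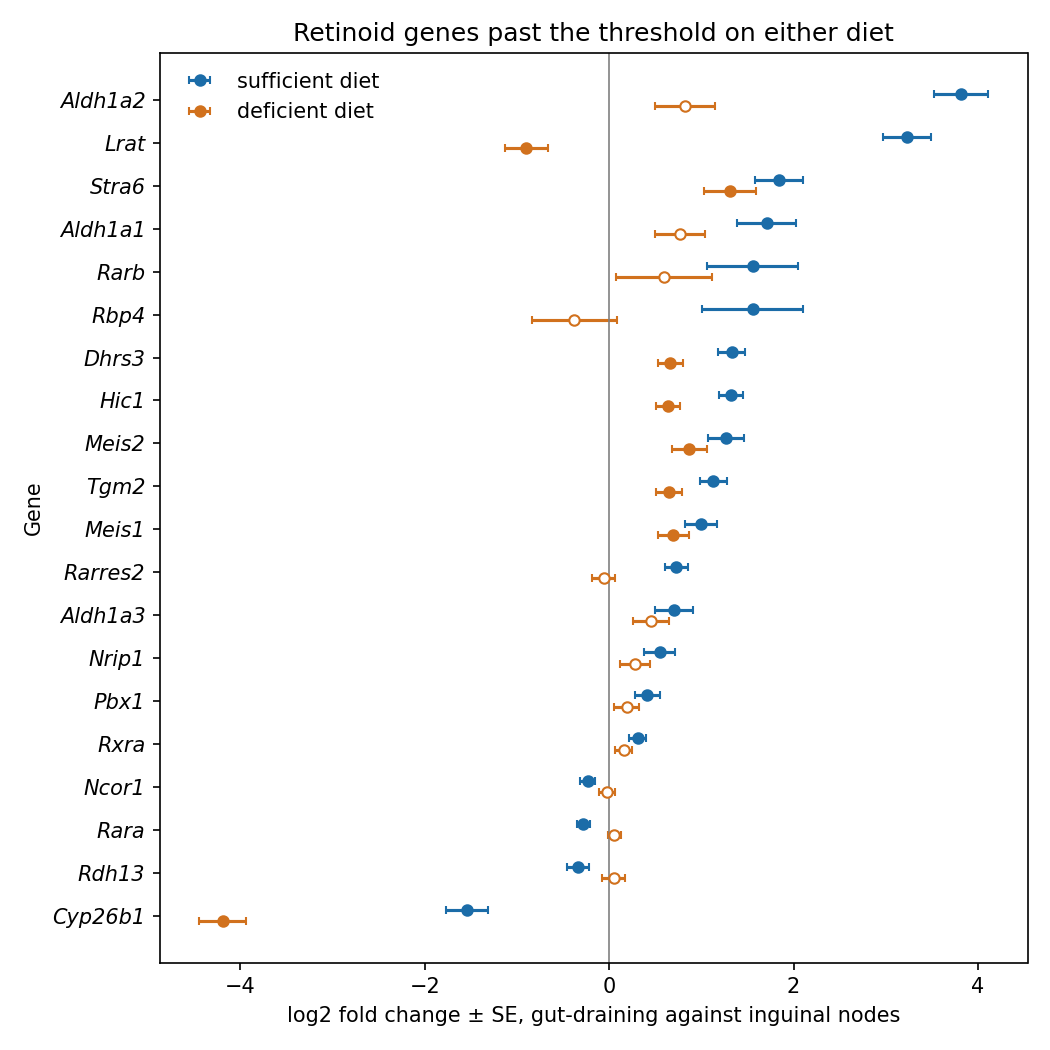
Log2 fold changes with SE, gut-draining against inguinal nodes, of 20 genes, which are the listed retinoid genes that passed on either diet and Cyp26b1. Filled points passed an adjusted p of 0.05. Cyp26b1 has the lowest value on both diets, at −1.54 and −4.19, and Aldh1a2 the highest on the sufficient diet, at 3.82.

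The electron donors that P450 enzymes need, Por (the P450 reductase), Cyb5a, Cyb5b and Cyb5r3, were all 4 slightly higher in sufficient gut-draining nodes, by 0.23 to 0.43 on the log2 scale (Cyb5r3 0.43 ± 0.09, edgeR adjusted p = 2.60e-04). Of all genes tested, 9.85% were higher there. The call was lost in 4 of 16 alternatives for Por and in 2 of 16 each for Cyb5a and Cyb5b. None of the 4 differed between gut-draining and inguinal nodes on the deficient diet or passed in the interaction. Cyb5b was lower in jejunal nodes on the deficient than on the sufficient diet (−0.31 ± 0.08, adjusted p = 0.00984, lost in 4 of 21 alternatives), where 1.83% of all genes were lower. Of 27 other cytochrome P450 genes tested (132 in the table), 8 were higher and 5 lower in sufficient gut-draining nodes (median 0.21), against 9.85% and 7.3% of all genes, and 3 higher and 2 lower on the deficient diet (median −0.06), against 3.79% and 1.98%. The lower counts were 2 without the sufficient libraries numbered 1 and 1 without the deficient libraries numbered 4. Of these 27, Cyp2f2 came nearest to Cyp26b1 on the deficient diet, with a log2 fold change of −3.42 ± 0.53 (adjusted p = 1.15e-05). Cyp4b1 went the other way on both diets (1.77 ± 0.18, adjusted p = 6.98e-10, and 1.28 ± 0.18, adjusted p = 1.2e-06). The interaction passed for 2 of the 27, Cyp4f16 (−0.74 ± 0.13, adjusted p = 0.00155) and Cyp1b1 (−0.59 ± 0.14, adjusted p = 0.0299), both smaller than that of Cyp26b1, with the Cyp1b1 call lost in 10 of 20 alternatives. Cyp11a1, the side-chain cleavage enzyme of steroid synthesis, rose on the deficient diet in duodenal nodes by 3.11 ± 0.45 (adjusted p = 3.38e-06). It also passed with diet in jejunal and ileal nodes. Cyp51, a cholesterol synthesis enzyme, fell in all 4 gut-draining nodes, most in ileal nodes, by 1.04 on the log2 scale (adjusted p = 1.97e-04). The Cyp51 call was lost in 6 of 21 alternatives in colonic, 4 in duodenal, 2 in jejunal and 1 in ileal nodes.

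Markers of other cell types moved along the same comparisons. Of all genes tested, 1.98% were lower and 3.79% higher when gut-draining were compared with inguinal nodes on the deficient diet. On that diet, 5 of 12 blood endothelial markers were lower and 1 higher in this comparison, and their summed level was 2204 to 3054 CPM in inguinal and 1161 to 2384 CPM in gut-draining libraries. Of 7 tested pericyte and smooth muscle markers 3 were lower, with sums of 347.3 to 462.3 CPM in inguinal and 230.3 to 373.4 CPM in gut-draining libraries. Of 8 tested mammary epithelial markers 3 were lower, with overlapping sums of 9.67 to 89.3 CPM in inguinal and 10 to 97.7 CPM in gut-draining libraries and Wap at 0 in the former. Lymphatic endothelial markers went the other way (12 of 12 higher on the sufficient, 8 of 12 on the deficient diet), as did adipose markers on the sufficient diet (8 of 17 higher, 2 lower). On the sufficient diet 9.85% of all genes were higher and 7.3% lower. With diet, 7 of 8 mast cell markers were higher in duodenal, jejunal and ileal nodes, with sums of 30.2 to 62.0 CPM on the sufficient and 90.3 to 445.3 CPM on the deficient diet, and 4, 3 and 5 of 12 reticular fibroblast markers were lower. In these nodes 6.33%, 2.79% and 2.78% of all genes were higher with diet, and 4.02%, 1.83% and 3.03% were lower. The part of these cell types in the Cyp26b1 differences was not tested. The high jejunal and ileal values of Cyp26b1 on the sufficient diet came from libraries numbered 5 in both nodes. Their pancreatic markers summed to 5188 and 3543 CPM. The 6 libraries with over 1% pancreatic counts, 3 of which are of the deficient duodenal group, gave Cyp26b1 at 0 to 8.71 CPM. The part of pancreatic tissue in these values was not tested.

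The genes whose group means were most like those of Cyp26b1 over the 10 groups (Pearson's r of log2 CPM with a prior count of 2) were Errfi1 (0.94), Srpx2 (0.94), Gm10699 (0.93), mt-Nd3 (0.92), BC028528 (0.91) and Mir223hg (0.91). Over the 50 libraries they were Emcn (0.74), Igfbp5 (0.72), Mup22 (0.72), Aqp1 (0.72), Srpx2 (0.71) and Spns3 (0.70). Srpx2 was in both lists, at 2.59 to 3.02 CPM in the means of deficient gut-draining groups, 5.91 ± 1.41 CPM in deficient inguinal nodes and 4.04 to 4.73 CPM in the sufficient groups. Emcn, the endothelial sialomucin endomucin and 1 of the blood endothelial markers above, had 4.46 to 7.02 CPM in the means of deficient gut-draining groups and 11.9 ± 1.28 CPM in deficient inguinal nodes. On the sufficient diet, however, Emcn stood at 14.2 ± 2.78 CPM in the duodenal group and 13.6 ± 3.78 CPM in the inguinal group. Points over libraries share groups and scaling, and these values are a description.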

How the data were processed

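Per the submitters' processing notes, kallisto, limma and edgeR and the names GRCm39 and mm10 were used (versions and roles not given in the sources used here). The deposited table holds the authors' estimated counts per gene, which need not be whole, for 56600 rows, 379 of them without a name. They were rounded, filtered with edgeR's filterByExpr (18077 genes left), TMM-scaled and fitted with 1 mean for each of 10 groups and sex, over all 50 libraries (glmQLFit, glmQLFTest). SE is the log2 fold change over the root of F. Members below the filter were tested by permutation of mean CPM (exact for 5 against 5). The members, gene lists and alternatives were chosen with earlier results of these data known. A listed gene is not reported here and was left out of the lists and their counts. Named genes were all members, up to 4 genes per pathway list and comparison by adjusted p, and up to 3 other P450 genes per direction by fold with at least 5 CPM in a group. Alternatives were RLE scaling, other filters, limma-voom, DESeq2, no sex term, females only, only the groups compared, a replicate block, each replicate number left out and libraries that stand apart left out. The scripts were tested on simulated counts. Deficient columns carry the further word 3rd, which no source used here explains.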

Additional observations from a re-analysis of the deposited data

Results flagged for a closer look

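Of 30 sets of 5 libraries (3 genes in 10 groups), 8 held a library far above the other 4, by a gap over 0.71 of the range. Chance gives about 1 in 20 for values from a normal distribution, which CPM need not follow. The rate cannot be applied to Cyp26a1 and Cyp26c1, whose sets rest on single counts. For Cyp26b1 these were the sufficient jejunal replicate 5 at 24.2 CPM and the sufficient ileal replicate 5 at 13 CPM. For Cyp26a1 they were the deficient jejunal replicate 1 at 0.412 CPM and the deficient ileal replicate 5 at 0.561 CPM. For Cyp26c1 they were the sufficient duodenal replicate 3 at 0.471 CPM, the sufficient jejunal replicate 3 at 0.152 CPM, the sufficient colonic replicate 4 at 0.133 CPM and the deficient duodenal replicate 5 at 0.115 CPM, each the single library of its group with a count.

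The diet difference of Cyp26b1 differed from that in inguinal nodes by an interaction term, at −2.65 for the 4 gut-draining nodes together, −3.66 for jejunal, −3.00 for ileal and −2.60 for duodenal nodes (log2).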

How the results depend on the processing

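Of 157 values of Cyp26b1 under alternatives to 8 comparisons, 155 kept direction and side of the threshold. The other 2 are diet in colonic nodes, −2.43 (adjusted p = 0.118) with only the libraries compared and −1.43 (adjusted p = 0.188) without those of low Gm19220 share. The cause was not tested. Of named list genes, 38 calls were lost at least once and none changed sign. In the other comparisons, 382 values kept their call, 15 lost it, 3 gained it and 15 changed sign.

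Same-numbered libraries deviated together (r over 0.1) in 37 of 50 pairs of nodes on the sufficient (30 with sex removed) and 38 of 50 on the deficient diet, with median r of 0.301 (0.168) and 0.187 against −0.0762 (−0.0149) and −0.0495 for other numbers, and 16 (10) and 19 of 25 libraries were closest to their own number. Whether a number marks a mouse is unknown, and the main fit took libraries as independent. No mouse had both diets, so a replicate block cannot check diet in a node, but counts above and the 624 below include it. With it, gut-draining against inguinal Cyp26b1 differences were −1.60 (sufficient) and −4.24 (deficient).

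Differences that changed sign had not passed. On the sufficient diet, Cyp26b1 did so for duodenal against ileal (0.197) and ileal against colonic nodes (−0.348) in females, duodenal against colonic nodes in females (−0.151) and without high pancreatic share (−0.130). On the deficient diet, it did so for duodenal against jejunal nodes without low Gm19220 (0.222), duodenal against ileal nodes without these (0.0565) or those of high pancreatic share (0.183), and jejunal against ileal nodes without the former (−0.165). For Cyp26a1 (CPM differences), gut-draining against inguinal nodes on the deficient diet gave −0.0373 and −0.00690 without those 2 sets, duodenal diet −0.0661 in females, and inguinal diet 0.00651 without low Gm19220. For Cyp26c1, gut-draining against inguinal nodes on the deficient diet gave 0.00836 without high pancreatic share, duodenal diet 0.0230 in females, and inguinal diet 0.0611 without low Gm19220.
Leaving out 1 replicate number at a time, those that changed sign ranged for Cyp26b1 over −0.0187 to 0.145 for duodenal against colonic nodes and −0.204 to 0.302 for male against female on the sufficient diet, and −0.737 to 0.212 for duodenal against jejunal, −0.391 to 0.258 for duodenal against ileal and −0.0769 to 0.429 for jejunal against ileal nodes on the deficient diet. For Cyp26a1 they ranged over −0.0391 to 0.0804 (sufficient) and −0.0624 to 0.0485 (deficient) for gut-draining against inguinal nodes and −0.0389 to 0.113 for duodenal diet. For Cyp26c1 they ranged over −0.0702 to 0.0510 for gut-draining against inguinal nodes on the deficient diet, and −0.0947 to 0.0230 for duodenal and −0.0645 to 0.0357 for inguinal diet.

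Of 157 counts of genes passing, 42 moved by over 1.5 times, and of 1256 counts of list genes 188. Gut-draining against inguinal nodes gave 3101 genes on the sufficient diet (1136 in females) and 1044 on the deficient diet (447 without low Gm19220). Diet gave 1870 in duodenal nodes (339 with only the libraries compared, 592 without high pancreatic share, 800 in females, 1239 with no filter), 834 in jejunal (203, 264 in females, 534 with no filter), 1050 in ileal (118, 367 in females, 636 without low Gm19220), 407 in colonic (41, 122 in females, 132 without low Gm19220, 624 with the block) and 154 in inguinal nodes (19, 35 without low Gm19220, 50 in females, 96 with no filter, 261 with DESeq2). The interaction gave 169 (19 without low Gm19220, 29 in females, 111 with no filter, 278 with the block, 290 with DESeq2). Leaving out a replicate number gave 1197 to 2017 in duodenal, 478 to 895 in jejunal, 659 to 1221 in ileal, 233 to 483 in colonic and 54 to 220 in inguinal nodes, and 78 to 217 for the interaction.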
